A study of Mus musculus with 12 samples.

Results

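The 10 genes described here encode glutamate receptor subunits and were followed in astrocytes selected from mouse brain after experimental stroke. They are the AMPA receptor genes Gria1, Gria2, Gria3 and Gria4, the NMDA receptor genes Grin1, Grin2a, Grin2b and Grin2c, and the metabotropic receptor genes Grm3 and Grm5. The members were taken by gene symbol from the deposited table of every library, and all 10 were found among 48709 genes. All 10 also had enough counts to be among the 15571 genes tested.

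The cells came from C57BL/6 mice of postnatal day 90 to 120, 24 h after transient middle cerebral artery occlusion (tMCAO), a stroke model in which the artery supplying much of 1 hemisphere is blocked and then reopened. Both hemispheres were dissociated and cells carrying the astrocyte surface antigen ACSA-2 were collected, and their RNA was sequenced on an Illumina HiSeq instrument. Mice titled Nhe1 Astro-KO (here KO; 295, 298 and 300) had been given tamoxifen, and mice named wild-type (here WT; 296, 297 and 474) had been given corn oil. The mice of both kinds carried Gfap-CreERT2+/-, a Cre recombinase that is made under the Gfap promoter and acts after tamoxifen, together with floxed alleles that Cre deletes. No group had tamoxifen without the floxed alleles, so effects of the deletion and of tamoxifen itself cannot be told apart. Each mouse gave 1 ipsilateral library, from the hemisphere of the occlusion, and 1 contralateral library, which makes 4 groups of 3 libraries: KO ipsilateral, KO contralateral, WT ipsilateral and WT contralateral. No group had a sham operation, so the contralateral side of the same mice is the only comparison for the injury.

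Glutamate is the main excitatory transmitter of the brain. AMPA and NMDA receptors are ion channels built from several subunits: GluA2, from Gria2, lowers the calcium permeability of AMPA receptors, and GluN1, from Grin1, is needed in every NMDA receptor and is joined by GluN2 subunits from the Grin2 genes. Metabotropic receptors act through G proteins: mGlu3, from Grm3, inhibits adenylyl cyclase and is the main metabotropic receptor of adult astrocytes, while mGlu5, from Grm5, activates phospholipase C and is best known from young astrocytes. Astrocytes sense transmitter released at nearby synapses through such receptors.

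Total counts were 11187723 to 15780600 per library. All 10 astrocyte markers listed (Aqp4, Gfap, Slc1a3, Slc1a2, Aldoc, Gja1, Aldh1l1, S100b, Atp1b2 and Fgfr3) had counts in every library, and their summed level was 18200 to 28000 CPM (counts scaled to library size) in KO ipsilateral, 23700 to 28200 CPM in KO contralateral, 10400 to 12200 CPM in WT ipsilateral and 17600 to 23000 CPM in WT contralateral libraries. The 10 neuronal markers summed to 25.9 to 78.3 CPM over the 12 libraries. The 9 oligodendrocyte markers summed to 9910 to 23400 CPM in KO ipsilateral, 5600 to 7860 CPM in KO contralateral, 14100 to 22200 CPM in WT ipsilateral and 18100 to 19500 CPM in WT contralateral libraries, so RNA of other cells was present. In WT ipsilateral libraries all oligodendrocyte sums were above all astrocyte sums. Of the 8 microglial markers the sum was 1930, 1290 and 240 CPM on the ipsilateral side of KO mice 295, 298 and 300. It was 675 to 1110 CPM in KO contralateral, 688 to 1160 CPM in WT ipsilateral and 399 to 441 CPM in WT contralateral libraries. The 5 choroid plexus and ependymal markers summed to 710 to 2390 CPM in KO and 2750 to 7890 CPM in WT libraries. Endothelial markers summed to 858 to 1350 CPM and pericyte markers to 471 to 1070 CPM. No marker of any list was at 0 in a whole group. Mouse 296 had 4 and 8 counts of Xist and 2917 and 2733 counts of Y-linked genes in its ipsilateral and contralateral libraries, whereas Xist had 9140 to 29592 counts and Y-linked genes had 0 to 8 counts in the remaining 10 libraries, a difference the titles do not state. These counts are those of a male for mouse 296, a WT mouse, and of females for all other mice. Sex was therefore not balanced between the genotypes. In bulk samples such as these, fewer cells of a type and less RNA per cell cannot be told apart, which holds for every change below.

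Grin2c was the most abundant of the 10 transcripts in all 4 groups. On the TPM scale, which is corrected for transcript length and therefore compares genes, Grin2c stood at 272 ± 70.8 in KO ipsilateral, 483 ± 39.8 in KO contralateral, 130 ± 8.49 in WT ipsilateral and 369 ± 73.2 in WT contralateral libraries (mean ± SD, n = 3 each). Grm3 came second in every group, at 156 ± 50.02, 239 ± 15.7, 89.2 ± 20.3 and 169 ± 82.9 TPM in the same order of groups. In each group the lowest library for Grin2c was above the highest for Grm3, and the lowest for Grm3 was above the highest for either AMPA gene that followed.

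Gria1 and Gria2 formed the next level. Gria1 averaged 56.1, 117, 23.8 and 52.4 TPM in KO ipsilateral, KO contralateral, WT ipsilateral and WT contralateral libraries. Gria2 averaged 48.6, 95.9, 25.7 and 53.2 TPM in the same groups. The ranges of these 2 genes overlapped in KO ipsilateral, WT ipsilateral and WT contralateral libraries, and their order there was not set apart from the spread. Gria4 came next in all groups, at 4.69, 5.48, 9.69 and 9.17 TPM, with no overlap with the gene above or below it.

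The other 5 genes were low, at means of 0.156 to 2.62 TPM. Their order changed with the group: Grm5 was sixth in KO ipsilateral libraries, Gria3 sixth in WT ipsilateral libraries and Grin2b sixth in both contralateral groups, while Grin2a was last in all 4. Most neighbours among these 5 overlapped in TPM. Grin1, whose product every NMDA receptor contains, stood at 0.521 ± 0.289 TPM in KO ipsilateral, 0.623 ± 0.0961 in KO contralateral, 0.555 ± 0.428 in WT ipsilateral and 0.758 ± 0.429 in WT contralateral libraries, while Grin2c stood at 130 to 483 TPM in those groups. The Grin1 values rest on 9 to 44 counts per library.

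**Figure D1:**
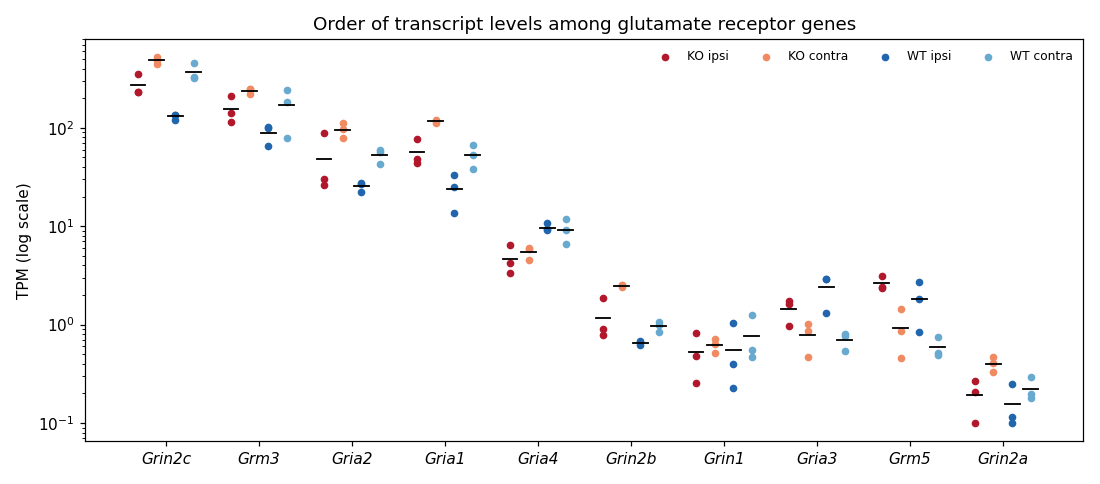
TPM of the 10 glutamate receptor genes on a log axis, with 1 point per library and a bar at the mean of each group of 3; groups run from KO ipsilateral to WT contralateral within each gene. Grin2c and Grm3 lie at or above 65.7 TPM in all libraries, and Grin1 and Grin2a lie at or below 1.25 TPM.

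Among the members of each family, 1 or 2 subunits held most transcripts, counted as TPM. Grin2c made up 99.5% of the summed Grin2a, Grin2b and Grin2c in KO ipsilateral, 99.4% in KO contralateral, 99.4% in WT ipsilateral and 99.7% in WT contralateral libraries. Grm3 made up 98.3 ± 0.337% of Grm3 plus Grm5 in KO ipsilateral libraries, against 99.6 ± 0.239% in KO contralateral libraries. The same share was 98.1 ± 0.687% in WT ipsilateral libraries, against 99.6 ± 0.218% in WT contralateral libraries. Among the AMPA genes, Gria2, the subunit that limits calcium entry, made up 40.9 ± 9.59% in KO ipsilateral, 43.7 ± 4.77% in KO contralateral, 42.1 ± 3.55% in WT ipsilateral and 46.5 ± 4.27% in WT contralateral libraries, with overlapping ranges between groups. Gria1 made up 53.1 ± 8.03%, 53.4 ± 4.50%, 37.6 ± 8.96% and 45.0 ± 3.57%. These shares describe the libraries, cover members only and were not tested. Grm7, not a member, averaged 3.47 TPM in KO ipsilateral, 3.77 in KO contralateral, 8.89 in WT ipsilateral and 6.42 in WT contralateral libraries. That was above Grm5 in each group. In the same order Grm4 averaged 2.14, 5.34, 0.775 and 2.39 TPM. Grin3a, for another NMDA subunit, averaged 5.06, 8.81, 1.69 and 4 TPM. Grin2d, outside the Grin2 sum, averaged 0.783, 0.641, 0.896 and 0.834 TPM.

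The ipsilateral side was compared with the contralateral side within each genotype, and KO with WT on each side, to ask how occlusion and the genotype bear on these receptors. In WT mice, Grin2c, Gria1 and Gria2 fell ipsilaterally and Gria3 and Grm5 rose. In KO mice only Grm5 passed this test, which does not pair the sides of a mouse, and it rose. In a fit that paired the sides, Gria2, Grin2b and Grin2c also passed in KO mice, and they fell. The paired fit added Grm3 in WT mice, which fell too. Between the genotypes, Grin2c and Gria1 were higher and Gria4 was lower in KO than in WT ipsilateral libraries, and Grin2b was higher in KO than in WT contralateral libraries. Each group of libraries enters 2 of these comparisons, so the comparisons are not independent of each other. No member was called for a difference between the genotypes in the side effect. Of the calls of the unpaired test, only that of Grin2c in WT mice was kept in every fit that left out a library or a mouse.

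Counts of calls are read against all 15571 genes tested with edgeR at an adjusted p of 0.05. In WT mice 2 of 10 members were higher and 3 lower ipsilaterally, where 9.61% of all genes were called higher and 9.54% lower, and 7 of 10 had no overlap between the sides, against 34.0% of all genes. In KO mice 1 member was higher and 0 lower, where 5.45% of genes were called higher and 0.841% lower, and 6 of 10 did not overlap, against 38.8%. At an unadjusted edgeR p below 0.05, 7 of 10 members passed in KO mice, where 4096 of all 15571 genes did. In WT mice 7 of 10 members passed, where 5321 of all genes did. Between KO and WT ipsilateral libraries 2 members were higher and 1 lower, where 4.33% of genes were higher and 1.98% lower, and 6 of 10 did not overlap, against 23.9%. Between KO and WT contralateral libraries 1 member was higher and 0 lower, where 0.0835% of genes were higher and 1.41% lower, and 5 of 10 did not overlap, against 24.5%. The median log2 fold change of the 10 members was -0.57 in KO and -0.64 in WT mice for ipsilateral over contralateral, beside -0.01 and -0.06 over all genes. For KO over WT it was 0.76 on the ipsilateral and 0.45 on the contralateral side, beside 0.02 and -0.00.

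With the mouse as a block, which compares the sides within each animal, the KO count became 1 higher and 3 lower, where 10.9% of genes were higher and 5.10% lower, and the WT count became 2 higher and 4 lower, where 14.7% were higher and 15.1% lower. For most members the direction was the same in 6 of 6 mice. The share of all genes with such a uniform direction was not computed. Gria1, Gria2, Grin2a, Grin2b, Grin2c and Grm3 had a lower log2 CPM on the ipsilateral side in 6 of 6 mice. Gria3 and Grm5 had a higher one in 6 of 6 mice, although Gria3 differed by 0.01 in mouse 298. Gria4 was lower in 3 and higher in 3, and Grin1 was lower in 5 and higher in 1.

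**Figure D2:**
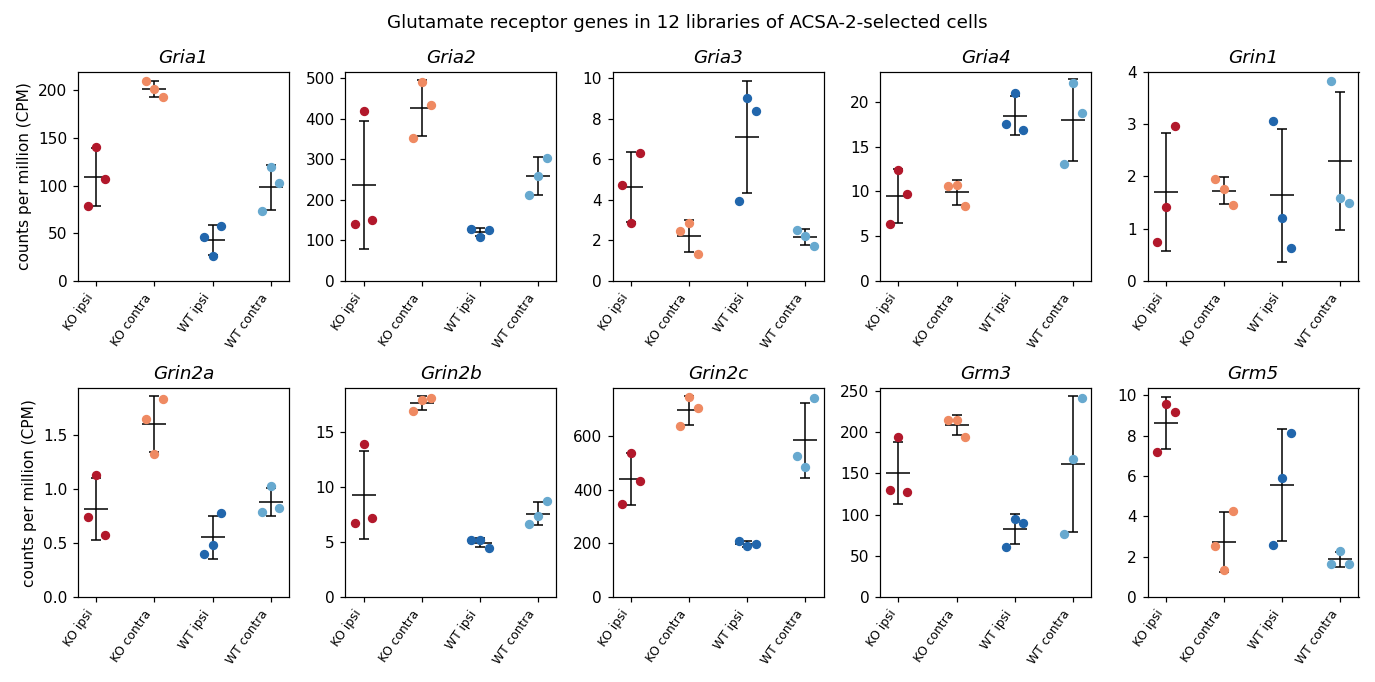
CPM of each glutamate receptor gene in the 12 libraries, with 1 panel per gene, 1 point per library, and the mean ± SD of each group of 3. Grin2c, Gria1 and Gria2 lie lower in ipsilateral than in contralateral libraries of WT mice, Gria3 and Grm5 lie higher, and Gria4 shows no shift between the sides.

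Among the AMPA receptor genes, Gria1 encodes GluA1, a subunit that forms calcium-permeable channels where GluA2 is absent. The gene (ENSMUSG00000020524) lies on chromosome 11, positions 57011387 to 57330244 of mm10, plus strand (positions here are those of the GENCODE M21 annotation). Gria1 had 78.9, 140 and 107 CPM in KO mice 295, 298 and 300 on the ipsilateral side, against 210, 201 and 193 CPM on the contralateral side. In WT mice 296, 297 and 474 it had 45.9, 25.9 and 57.4 CPM ipsilaterally, against 72.8, 119 and 103 CPM contralaterally. The sides did not overlap in either genotype, and all KO contralateral libraries were above all others. Gria1 fell in WT mice by 1.19 ± 0.28 on the log2 scale, 2.28-fold (± SE; edgeR adjusted p = 0.0144). This call was lost without the contralateral library of mouse 297 (adjusted p = 0.0561), without that of mouse 474 (0.0578) and without mouse 297 (0.13), and in a fit of the WT groups alone (0.0604). The KO difference of -0.89 ± 0.28 did not pass (edgeR adjusted p = 0.0777), but did without the ipsilateral library of mouse 298 (0.0411).

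Gria1 was also higher in KO than in WT ipsilateral libraries, by 1.33 ± 0.28 on the log2 scale or 2.52-fold (edgeR adjusted p = 0.0204), with no overlap between the groups. The call was lost in 8 of 12 fits that left out 1 library or 1 mouse (adjusted p = 0.0502 to 0.112): without the ipsilateral library of mouse 296, 297, 298 or 300, and without mouse 295, 297, 298 or 300. It was also lost in a fit of the ipsilateral groups alone (0.087). On the contralateral side the groups did not overlap either, and the difference of 1.03 ± 0.28 did not pass (edgeR adjusted p = 0.104).

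Gria2 encodes the subunit that sets calcium permeability, through a codon that is edited in its RNA. The gene (ENSMUSG00000033981) lies on chromosome 3, positions 80681450 to 80802835, minus strand. Gria2 had 141, 419 and 151 CPM in KO ipsilateral libraries of mice 295, 298 and 300, against 353, 490 and 435 CPM contralaterally. It had 128, 108 and 125 CPM in WT ipsilateral libraries of mice 296, 297 and 474, against 212, 260 and 304 CPM contralaterally. The ipsilateral library of KO mouse 298 stood far above the other 2 KO ipsilateral libraries and overlapped the contralateral range, while the WT sides were apart. Gria2 fell in WT mice by 1.10 ± 0.35 on the log2 scale, 2.15-fold (edgeR adjusted p = 0.0455), a call that was lost in every fit that left out a library or a mouse except the one without the contralateral library of mouse 296 (adjusted p = 0.0693 to 0.235). It was also lost without a filter on low counts (0.0722) and on TPM (0.0731, limma). In KO mice the difference was -0.85 ± 0.35 (edgeR adjusted p = 0.152). It passed with the mouse as a block, at -1.03 (0.0315), and without the ipsilateral library of mouse 298, at -1.53 (0.00217). KO ipsilateral libraries did not overlap WT ipsilateral ones, at 0.98 ± 0.35 (edgeR adjusted p = 0.124), a value that was 0.27 without the ipsilateral library of mouse 298 and 0.30 without mouse 298. KO and WT contralateral libraries did not overlap either, at 0.72 ± 0.35 (0.374).

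Gria3, for GluA3, moved the other way. The gene (ENSMUSG00000001986) lies on the X chromosome, positions 41400854 to 41678601, plus strand. Gria3 had 4.74, 2.88 and 6.30 CPM in KO ipsilateral libraries of mice 295, 298 and 300, against 2.45, 2.87 and 1.32 CPM contralaterally, which corresponds to 21 to 66 counts. In WT mice 296, 297 and 474 it had 3.94, 9.02 and 8.40 CPM ipsilaterally, against 2.52, 2.22 and 1.74 CPM contralaterally. The WT sides were apart, and the KO sides nearly touched, since mouse 298 had almost equal values. Gria3 rose in WT mice by 1.72 ± 0.41 on the log2 scale, 3.29-fold (edgeR adjusted p = 0.0149). The call was lost without the ipsilateral library of mouse 297 (adjusted p = 0.062), the contralateral library of mouse 474 (0.0575), mouse 297 (0.133) and mouse 474 (0.113), and it was kept without mouse 296, whose counts of Xist and Y-linked genes differ from those of the others. The KO difference of 1.07 ± 0.41 did not pass (edgeR adjusted p = 0.132), and neither genotype contrast passed.

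Gria4, for GluA4, differed little in CPM between the sides in either genotype. The gene (ENSMUSG00000025892) lies on chromosome 9, positions 4417896 to 4796234, minus strand. Gria4 had 6.37, 12.4 and 9.74 CPM in KO ipsilateral and 10.6, 10.7 and 8.32 CPM in KO contralateral libraries. In WT libraries it had 17.5, 21.02 and 16.9 CPM ipsilaterally and 13.0, 22.1 and 18.7 CPM contralaterally. Every KO library was below every WT library. Gria4 fell by 0.96 ± 0.26 on the log2 scale in KO against WT ipsilateral libraries, 1.94-fold (edgeR adjusted p = 0.0486). That call was kept in only 2 of 12 fits that left out a library or a mouse, those without the KO ipsilateral library of mouse 298 and without mouse 296, and was lost in the others (adjusted p = 0.0635 to 0.215), without a filter on low counts (0.0514), on TPM (0.0551, limma) and in a fit of the ipsilateral groups alone (0.109). The contralateral difference of -0.86 ± 0.26 did not pass (edgeR adjusted p = 0.144). Of the 8 listed markers of oligodendrocyte precursors, cells that also carry AMPA receptors, 7 had a positive and 1 a negative log2 fold change in KO against WT ipsilateral libraries, and 3 a positive and 5 a negative one contralaterally. Of the oligodendrocyte markers 9 of 9 had a negative log2 fold change in KO against WT contralateral libraries, with sums of 5600 to 7860 CPM in KO and 18100 to 19500 CPM in WT libraries, and 4 of them passed the test. Of the 5 choroid plexus and ependymal markers, the choroid plexus ones Ttr, Folr1 and Kl had negative log2 fold changes in KO against WT libraries on both sides, and the ependymal ones Foxj1 and Tmem212 had positive ones. Ttr, which makes up most of their sum, averaged 666 CPM in KO ipsilateral against 3740 CPM in WT ipsilateral libraries (edgeR adjusted p = 0.0164), and 1100 CPM in KO contralateral against 5630 CPM in WT contralateral libraries (0.0388). The part of these cells in the difference was not tested.

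Among the NMDA receptor genes, Grin2c encodes GluN2C, a subunit known from cerebellar granule cells and from forebrain astrocytes, whose channels are only weakly blocked by magnesium. The gene (ENSMUSG00000020734) lies on chromosome 11, positions 115249169 to 115267243, minus strand. Grin2c had 345, 538 and 432 CPM in KO ipsilateral libraries of mice 295, 298 and 300, against 637, 746 and 703 CPM contralaterally. In WT mice 296, 297 and 474 it had 209, 189 and 197 CPM ipsilaterally, against 525, 483 and 742 CPM contralaterally. The sides were apart in both genotypes, and every WT ipsilateral library was below every other library of the study. Grin2c fell in WT mice by 1.56 ± 0.20 on the log2 scale, 2.95-fold (edgeR adjusted p = 0.00103), the smallest adjusted p of any member, and was called in 15 of 15 alternatives. In KO mice the difference was -0.67 ± 0.19 (edgeR adjusted p = 0.0629), and it passed with the mouse as a block, at -0.69 (0.0234). Within mice the ipsilateral minus contralateral log2 CPM was -0.88, -0.47 and -0.70 in KO mice 295, 298 and 300, against -1.33, -1.35 and -1.92 in WT mice 296, 297 and 474, with no overlap.

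Grin2c was higher in KO than in WT ipsilateral libraries by 1.15 ± 0.20 on the log2 scale, 2.21-fold (edgeR adjusted p = 0.00942). This call held in 13 of 17 alternatives and was lost without the ipsilateral library of mouse 297 (adjusted p = 0.0589) and without mouse 297 (0.0764), mouse 298 (0.0546) or mouse 300 (0.05). The contralateral libraries overlapped, with a difference of 0.25 ± 0.19 (edgeR adjusted p = 0.551). The test of the difference between the genotypes in the side effect gave 0.89 ± 0.27 for Grin2c, with an unadjusted p of 0.00705 and an adjusted p of 0.948 in edgeR, so it failed the correction. Of all genes 0% passed this interaction test, 763 genes and 1 member had an unadjusted p below 0.05, and DESeq2 called 14 genes and 0 members.

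**Figure D3:**
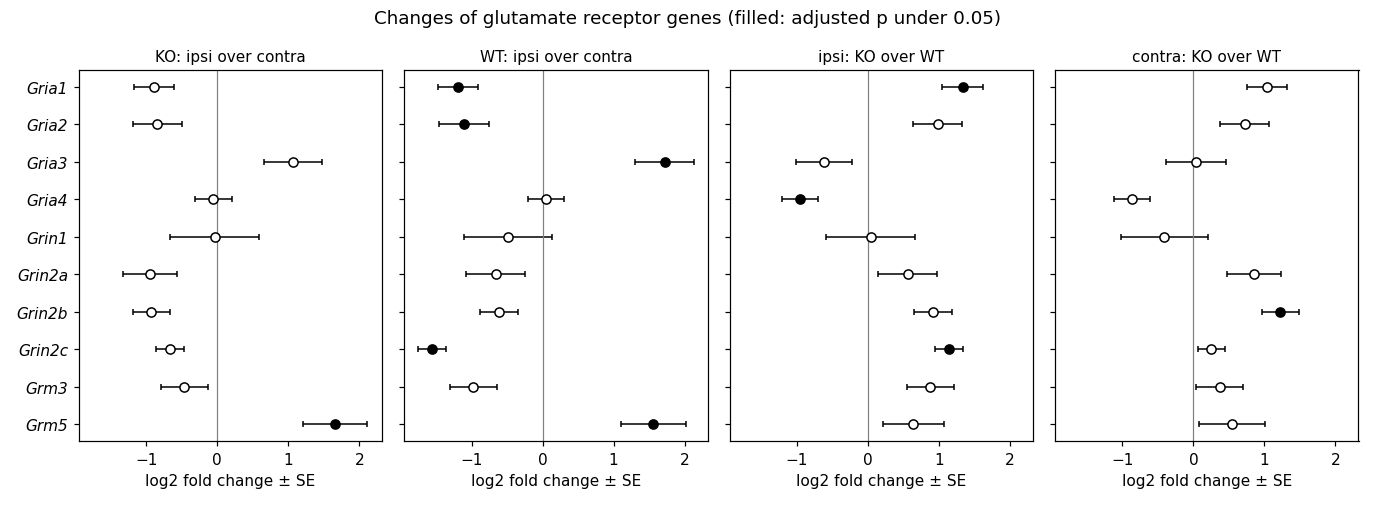
Log2 fold change ± SE of each gene in the 4 comparisons, from left to right KO ipsilateral over contralateral, WT ipsilateral over contralateral, KO over WT ipsilateral and KO over WT contralateral; filled points have an edgeR adjusted p below 0.05. Grin2c in WT mice is the call with the smallest error relative to its size, at -1.56 ± 0.20.

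Grin2b, for GluN2B, a subunit best known from neurons, was low in these cells. The gene (ENSMUSG00000030209) lies on chromosome 6, positions 135713233 to 136173511, minus strand. Grin2b had 6.74, 13.9 and 7.16 CPM in KO ipsilateral libraries of mice 295, 298 and 300, against 16.9, 17.9 and 18.1 CPM contralaterally. WT libraries of mice 296, 297 and 474 had 5.20, 5.15 and 4.45 CPM ipsilaterally, against 6.61, 7.38 and 8.68 CPM contralaterally. The 4 groups were ordered KO contralateral, KO ipsilateral, WT contralateral and WT ipsilateral by their means, with the middle groups overlapping. Grin2b was higher in KO than in WT contralateral libraries by 1.22 ± 0.26 on the log2 scale, 2.34-fold (edgeR adjusted p = 0.0406), and was the only member called there. The call was lost in 12 of 12 fits that left out a library or a mouse (adjusted p = 0.0565 to 0.177) and on TPM (0.129, limma). Ipsilaterally the difference was 0.91 ± 0.27 (edgeR adjusted p = 0.064). Neither side contrast passed, at -0.93 ± 0.26 in KO (edgeR adjusted p = 0.0534) and -0.62 ± 0.27 in WT mice (0.125), although the KO one did with the mouse as a block, at -0.9997 (0.0272). The summed neuronal markers overlapped between the contralateral groups in range, at 25.9 to 41.0 CPM in KO and 37.8 to 40.1 CPM in WT libraries, and 0 of 9 neuronal markers tested were called in any comparison. Of the 8 oligodendrocyte precursor markers, 3 had a positive and 5 a negative log2 fold change in KO against WT contralateral libraries (median -0.16), and Xylt1 was the 1 that passed, at 0.97 ± 0.20 (edgeR adjusted p = 0.0331). The part of such cells in the Grin2b difference was not tested.

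Grin1 (ENSMUSG00000026959; chromosome 2, positions 25291181 to 25319187, minus strand) and Grin2a (ENSMUSG00000059003; chromosome 16, positions 9567898 to 9995560, minus strand) were at the edge of detection. Grin1 ranged from 0.741 to 2.96 CPM in KO ipsilateral, 1.45 to 1.96 in KO contralateral, 0.635 to 3.07 in WT ipsilateral and 1.49 to 3.83 in WT contralateral libraries, and its groups overlapped in every comparison. An antisense gene, Grin1os, covers 13.5% of the Grin1 exon bases on the opposite strand and had at most 6 counts in a library. Grin2a ranged from 0.573 to 1.13 CPM in KO ipsilateral libraries, against 1.32 to 1.83 in KO contralateral libraries, and from 0.394 to 0.776 in WT ipsilateral, against 0.783 to 1.03 in WT contralateral libraries. Its sides did not overlap in either genotype, at -0.95 ± 0.38 in KO (edgeR adjusted p = 0.147) and -0.66 ± 0.42 in WT mice (0.288), on 5 to 29 counts per library. Neither gene passed in any comparison.

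Among the metabotropic genes, Grm3 was the abundant one. The gene (ENSMUSG00000003974) lies on chromosome 5, positions 9485541 to 9725170, minus strand. Grm3 had 130, 194 and 127 CPM in KO ipsilateral libraries of mice 295, 298 and 300, against 215, 215 and 194 CPM contralaterally. WT mice 296, 297 and 474 had 61.1, 94.9 and 89.9 CPM ipsilaterally, against 76.4, 167 and 241 CPM contralaterally. The low contralateral library of mouse 296 overlapped the WT ipsilateral range. Grm3 did not pass in WT mice, at -0.98 ± 0.33 (edgeR adjusted p = 0.0603), but did with the mouse as a block, at -0.86 (0.0159), and without the contralateral library of mouse 296, at -1.31 (0.00435). In KO mice it was -0.47 ± 0.33 (edgeR adjusted p = 0.379). KO ipsilateral libraries were all above WT ipsilateral ones, by 0.88 ± 0.33 (edgeR adjusted p = 0.149), whereas the contralateral groups overlapped.

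Grm5, the phospholipase C-coupled receptor, was scarce and rose ipsilaterally in both genotypes. The gene (ENSMUSG00000049583) lies on chromosome 7, positions 87584168 to 88134907, plus strand. Grm5 had 7.18, 9.57 and 9.17 CPM in KO ipsilateral libraries of mice 295, 298 and 300, against 2.54, 1.32 and 4.28 CPM contralaterally. In WT mice 296, 297 and 474 it had 2.60, 5.88 and 8.12 CPM ipsilaterally, against 1.65, 2.30 and 1.65 CPM contralaterally. The sides were apart in both genotypes, on 18 to 136 counts per library. The rise was 1.66 ± 0.44 on the log2 scale or 3.16-fold in KO mice (edgeR adjusted p = 0.048) and 1.56 ± 0.46 or 2.95-fold in WT mice (0.0343). The KO call was lost in 9 of 9 fits that left out a library or a mouse (adjusted p = 0.0618 to 0.243), and the WT call in 7 of 9, all but those without the ipsilateral library of mouse 296 and without mouse 296 (0.0671 to 0.228). Neither passed on TPM (adjusted p = 0.0806 in KO and 0.0935 in WT mice, limma), and the WT call was lost in a fit of the WT groups alone (0.0718). KO and WT overlapped on both sides and the differences did not pass, at 0.64 ± 0.43 ipsilaterally (edgeR adjusted p = 0.425) and 0.54 ± 0.47 contralaterally (0.59).

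In WT mice 9 of 10 astrocyte markers moved in the direction of the receptors that fell. The exception was Gfap, at 0.66 on the log2 scale (edgeR adjusted p = 0.207). Of the 10 astrocyte markers, 0 were higher and 8 lower in WT ipsilateral against contralateral libraries, with a median log2 fold change of -0.87, and 8 were higher and 0 lower in KO against WT ipsilateral libraries, with a median of 1.02. In KO mice 1 was called between the sides, Gfap, the filament protein of reactive astrocytes, which rose by 1.80 ± 0.36 on the log2 scale (edgeR adjusted p = 0.0188). In WT mice 8 of 8 oligodendrocyte precursor markers had a negative log2 fold change ipsilaterally, of which 1 passed, and so had 3 of 4 pericyte markers, of which 2 passed. The same direction was seen for 5 of 5 choroid plexus and ependymal markers and 8 of 9 neuronal ones, with 0 called in either list. A positive log2 fold change was seen there for 5 of 9 oligodendrocyte and 3 of 6 endothelial markers. Of the microglial markers 6 of 8 had a positive one there and 0 were called. To set the receptors beside the astrocyte markers, the CPM of each member was divided by the summed CPM of the 10 markers in the same library, a description added after the data were seen and with no test. Several of these markers were themselves called between the sides, so the ratio does not separate cell numbers from RNA per cell. The part of cell composition in the receptor differences was not tested.

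Per 1000 CPM of astrocyte markers, Grin2c stood at 18.9 ± 0.384 in KO ipsilateral libraries, against 26.1 ± 1.04 in KO contralateral libraries (n = 3 each). The corresponding levels were 18.0 ± 1.71 in WT ipsilateral libraries, against 29.7 ± 2.61 in WT contralateral libraries. On this scale the sides were still apart in both genotypes, while the KO and WT ipsilateral libraries overlapped. Gria1 stood at 4.62 ± 0.337 in KO ipsilateral, against 7.62 ± 1.08 in KO contralateral libraries. In WT mice Gria1 stood at 3.84 ± 1.18 ipsilaterally, against 5.10 ± 1.38 contralaterally, with overlapping sides. The KO and WT ipsilateral libraries overlapped for Gria1 too, at 4.32 to 4.99 in KO and 2.49 to 4.72 in WT libraries. Gria2 stood at 9.7 ± 4.59 in KO ipsilateral, against 15.9 ± 1.33 in KO contralateral libraries, with overlapping sides. In WT mice Gria2 stood at 10.9 ± 0.978 ipsilaterally, against 13.3 ± 1.23 contralaterally, with the sides apart. Without Gfap among the markers the WT sides of Gria2 overlapped, reaching 14.2 ipsilaterally and starting at 12.9 contralaterally. Grm3 overlapped between all groups, at 6.50 ± 0.915 in KO ipsilateral, 7.88 ± 1.12 in KO contralateral, 7.42 ± 1.71 in WT ipsilateral and 8.05 ± 3.26 in WT contralateral libraries.

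Grm5 and Gria3 were higher ipsilaterally against the markers too. Grm5 stood at 0.376 ± 0.0297 per 1000 CPM of markers in KO ipsilateral, against 0.102 ± 0.0527 in KO contralateral libraries, and at 0.492 ± 0.221 in WT ipsilateral, against 0.0983 ± 0.0288 in WT contralateral libraries. Gria3 stood at 0.211 ± 0.0934 in KO ipsilateral, against 0.0842 ± 0.0323 in KO contralateral libraries, where the sides overlapped, and at 0.643 ± 0.254 in WT ipsilateral, against 0.115 ± 0.0352 in WT contralateral libraries. Gria4 stood at 1.69 ± 0.320 in WT ipsilateral, against 0.932 ± 0.270 in WT contralateral libraries, and these sides were apart, unlike in CPM. In KO mice Gria4 stood at 0.402 ± 0.0478 ipsilaterally, against 0.375 ± 0.0772 contralaterally, with overlapping sides. The KO libraries were below the WT libraries on both sides for Gria4 on this scale too. Grin2b stood at 0.666 ± 0.0429 in KO contralateral, against 0.389 ± 0.0213 in WT contralateral libraries, with no overlap. Ipsilaterally Grin2b stood at 0.390 ± 0.0959 in KO, against 0.450 ± 0.0734 in WT libraries, with overlap. Without Gfap in the marker list the Grin2c levels were 21.9 in KO ipsilateral and 21.6 in WT ipsilateral libraries.

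**Figure D4:**
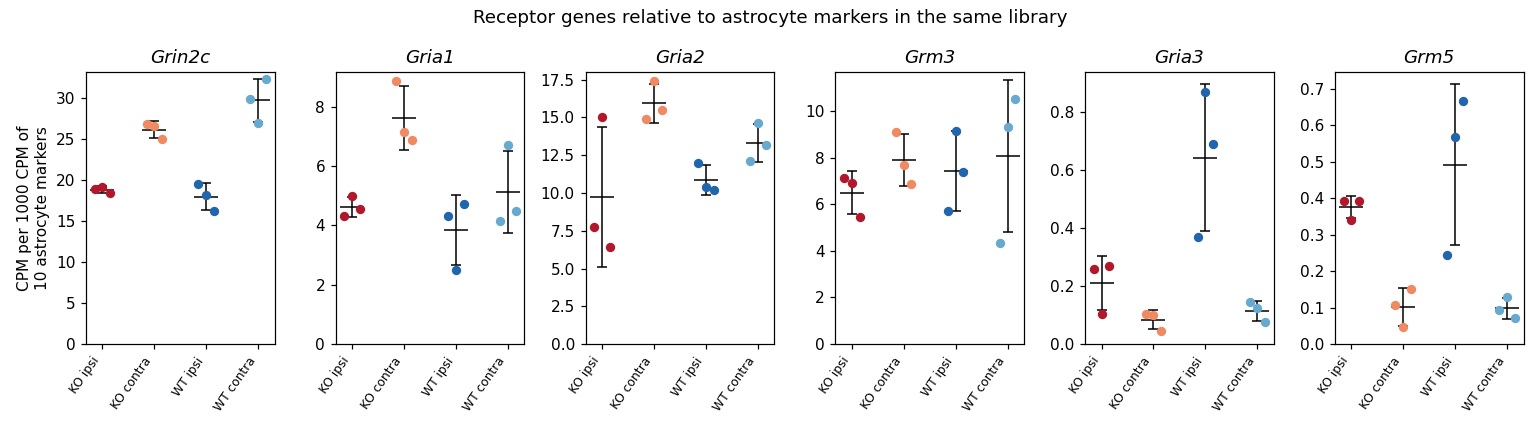
CPM of 6 receptor genes per 1000 CPM of the 10 astrocyte markers in the same library, with 1 point per library and the mean ± SD of each group of 3. Grin2c lies lower ipsilaterally in both genotypes (18.9 and 18.0 in KO and WT ipsilateral libraries), Grm3 overlaps between all groups, and Grm5 lies higher ipsilaterally.

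The other genes for glutamate receptor subunits were taken as a list of 16, of which 12 were tested and the rest had too few counts. In WT mice 0 of 12 were higher and 4 lower ipsilaterally. Grik5, a kainate receptor subunit, fell by 0.95 ± 0.13 on the log2 scale (edgeR adjusted p = 0.00117) and Grid1, a delta receptor of synapse organisation, fell by 1.30 ± 0.19 (0.00174). Grm4, a metabotropic receptor coupled to inhibitory G proteins, fell by 1.67 ± 0.39 (edgeR adjusted p = 0.0135). In KO mice 0 were called in either direction, and the smallest adjusted p values were those of Grm4 (-1.18 ± 0.36; edgeR adjusted p = 0.0722) and Grid1 (-0.58 ± 0.18; 0.0785). The median of the 12 was -0.13 in WT and -0.32 in KO mice.

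Grik5 stood at 67.6 TPM in KO ipsilateral, 90.9 in KO contralateral, 41.1 in WT ipsilateral and 76.4 in WT contralateral libraries. Between KO and WT ipsilateral libraries 4 of these 12 genes were higher and 1 lower. Grid1 was higher by 1.32 ± 0.19 on the log2 scale (edgeR adjusted p = 0.00659), Grik5 by 0.81 ± 0.13 (0.00752) and Grin3a, a modulatory NMDA subunit, by 1.66 ± 0.43 (0.0397). Grm7, a presynaptic metabotropic receptor in neurons, fell by 1.26 ± 0.22 (edgeR adjusted p = 0.00931), to 6.59 CPM in KO ipsilateral libraries, against 15.8 CPM in WT ipsilateral libraries. Contralaterally 0 of 12 were called, with Grm7 at -0.89 ± 0.22 (edgeR adjusted p = 0.0686) and Grid1 at 0.60 ± 0.18 (0.157).

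Auxiliary subunits bind the channels and set their traffic and gating. Of 14 listed, 11 were tested, and in WT mice 3 were higher and 3 lower ipsilaterally. Neto2, an auxiliary protein of kainate receptors, rose by 2.46 ± 0.26 on the log2 scale in WT mice (edgeR adjusted p = 0.000898) and by 2.07 ± 0.25 in KO mice (0.00312), where it was the only 1 of the list called. Neto2 had means of 16.3 CPM in KO ipsilateral libraries, against 3.87 CPM in KO contralateral libraries, and 16.4 CPM in WT ipsilateral libraries, against 2.98 CPM in WT contralateral libraries. Cacng5, an atypical member of the transmembrane AMPA receptor regulatory proteins, rose by 2.84 ± 0.59 in WT mice (edgeR adjusted p = 0.00766), while Cacng4 of the same family fell by 1.05 ± 0.28 (0.0221). Cacng8, also of that family, fell by 1.41 ± 0.41 in WT mice with overlapping sides (edgeR adjusted p = 0.0334) and was higher in KO than in WT ipsilateral libraries by 1.65 ± 0.41 (0.0376), the only 1 of 11 called there. Contralaterally 0 of 11 were called, with Shisa6 at 0.90 ± 0.26 (edgeR adjusted p = 0.123) and Shisa9 at 0.99 ± 0.42 (0.313).

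Of 24 listed scaffolds, signalling partners and RNA-editing enzymes, 22 were tested. Homer1, a scaffold that binds metabotropic receptors of the mGlu5 kind, rose by 0.88 ± 0.14 on the log2 scale in WT mice (edgeR adjusted p = 0.00222) and by 0.59 ± 0.14 in KO mice (0.0292). Dlg1, a scaffold that binds GluA1, rose by 0.63 ± 0.13 in WT mice (edgeR adjusted p = 0.00766) and by 0.56 ± 0.13 in KO mice (0.0302). These 2 were the ones called higher in both genotypes, and 0 were lower in KO mice. In WT mice 3 fell, among them Plcb1, a phospholipase C, by 0.85 ± 0.16 (edgeR adjusted p = 0.00461) and Dlg4, a postsynaptic scaffold, by 0.80 ± 0.15 (0.00543). Plcb1 and Dlg4 were also the 2 of 22 called between KO and WT ipsilateral libraries, higher by 0.75 ± 0.16 (edgeR adjusted p = 0.019) and 0.69 ± 0.15 (0.0222). Contralaterally 0 of 22 were called, with Grip1 at 0.89 ± 0.25 (edgeR adjusted p = 0.111) and Dlg1 at -0.33 ± 0.13 (0.277). In the interaction 0 of the 12 other receptor genes, 0 of the 11 auxiliary genes and 0 of these 22 were called.

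The genes whose log2 CPM ran most like each member over the 12 libraries were ranked by Pearson correlation, as a description of libraries that share depth, composition and mice in pairs. Grin2c ran most like Gpr162 (r = 0.993), Acaa2 (0.992) and Bcan (0.992). Gria1 ran most like Igsf1 and Dag1 (r = 0.985 each) and Slc6a11 (0.982), and Gria2 like Srpk2 (0.984), Dtna (0.983) and Lgi1 (0.981). Grm3 ran most like Slco1c1 (r = 0.977), Hacd3 (0.976) and Slc5a11 (0.974). The closest genes were less alike for the scarcer members, at 0.964 for Grin2b (Ptch1), 0.957 for Gria3 (Ola1), 0.955 for Gria4 (Nkain2), 0.926 for Grm5 (Slc14a1) and 0.906 for Grin1 (Ubald2). No value was set for Grin2a, whose mean was below 1 CPM.

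The promoter sequences of the 2 most abundant members, which were lower ipsilaterally in 6 of 6 mice, are shown beside that of Gria2, which was lower in the same mice. They are RefSeq sequences of build GRCm38.p6, from 250 bases before to 50 after the start given there, read 5′ to 3′ on the gene's strand, with the letters of GC boxes (GGGCGG on either strand) in capitals. Grin2c is at chr11:115267194-115267493, Grm3 at chr5:9725303-9725602 and Gria2 at chr3:80802786-80803085, all minus strand, and the RefSeq start of Grm3 lies upstream of the gene's end in the annotation used for positions above. Promoters were in the table for 5 of the 10 members, the other 2 being Gria4 and Grin1.
Grin2c: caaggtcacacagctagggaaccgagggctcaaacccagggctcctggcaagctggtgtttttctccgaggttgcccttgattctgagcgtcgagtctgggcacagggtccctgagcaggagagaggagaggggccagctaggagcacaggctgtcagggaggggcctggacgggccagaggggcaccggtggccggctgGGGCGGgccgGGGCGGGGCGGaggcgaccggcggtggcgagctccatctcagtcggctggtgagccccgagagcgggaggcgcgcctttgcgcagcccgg
Grm3: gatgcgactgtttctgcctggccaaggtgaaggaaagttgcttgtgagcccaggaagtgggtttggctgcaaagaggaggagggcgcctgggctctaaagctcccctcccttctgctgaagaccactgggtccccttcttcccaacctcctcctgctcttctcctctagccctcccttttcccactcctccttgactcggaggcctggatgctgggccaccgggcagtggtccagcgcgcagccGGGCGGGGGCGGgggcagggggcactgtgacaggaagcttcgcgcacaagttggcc
Gria2: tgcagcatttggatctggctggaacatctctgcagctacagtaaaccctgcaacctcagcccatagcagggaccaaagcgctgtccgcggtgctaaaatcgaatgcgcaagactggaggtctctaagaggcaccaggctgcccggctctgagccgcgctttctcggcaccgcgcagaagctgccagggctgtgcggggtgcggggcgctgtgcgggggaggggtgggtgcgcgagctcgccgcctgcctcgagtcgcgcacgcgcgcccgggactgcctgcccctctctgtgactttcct
The Grin2c window had 3 GC boxes, of which the last 2 share a base, and the Grm3 window had 2 that adjoin, while the Gria2 and Gria4 windows had 0 and that of Grin1 had 1. A GC box was in 35.7% of 32851 promoters of this length. The Grin2c window was 70.0% G or C, that of Grm3 63.7% and that of Gria2 65.7%, against a median of 52.7% over all promoters. None of the 5 windows held the AP-1 motif TGANTCA, the STAT motif TTCNNNGAA or the cyclic AMP response element TGACGTCA, which were in 7.81%, 8.30% and 1.79% of all promoters. These matches are letters in a window and say nothing of binding.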

How the data were processed

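The authors deposited 1 table per library with 48709 genes, holding counts of reads per gene, TPM, transcript levels corrected for length, and RPKM; these units were read from the file headers and the values. Per the submitters' processing notes reads were placed on mm10; the sources used here name no aligner, counter or strand of counting. Identifiers of 48349 genes were found in GENCODE M21. For 9 of 10 members the deposited counts were proportional to RPKM, which was used only for this check, and the counts of Grin2a held 75.4% of the reads its RPKM implies.

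The test was that of edgeR 4.0.16 (R 4.3.3): filterByExpr (minimum count 10), TMM scaling, and a robust quasi-likelihood fit over all 12 libraries with 1 term per group and 8 residual degrees of freedom. Benjamini-Hochberg adjustment covered 15571 genes, and calls were made at an adjusted p of 0.05. CPM were computed from counts and TMM library sizes; each fold change is KO over WT or ipsilateral over contralateral, and the SE, an approximation, is its log2 size over the root of the F statistic. Counts were also simulated for all 12 libraries, with genes changed only in WT ipsilateral ones. The procedure recovered 42% of 100 genes changed 2-fold and 86% of 100 changed 4-fold, with 8 unchanged genes called of 15377 tested. Far fewer genes were changed there than the 2982 called in the real WT comparison, so these rates need not hold for it.

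The libraries of a group come from 3 different mice, and the animal number in the titles pairs the sides. After group means were removed, the sides of a mouse correlated over 15571 genes at 0.29, 0.35 and 0.16 for mice 295, 298 and 300 and at 0.63, 0.016 and 0.36 for mice 296, 297 and 474. The alternatives were DESeq2 1.42.0, RLE scaling, no filter beyond 1 count, limma 3.58.1 on log2(TPM + 1) where at least 3 libraries reached 1 TPM, the mouse as a block, a fit of the compared groups alone, and fits without each library or mouse. The members, gene lists and tests were chosen with earlier results of these data known. Every member is given in every comparison; of other lists, up to 4 called genes with the smallest adjusted p, or 2 where none was called, were eligible to be named, and the 3 genes most alike to each member. Dlg2 was not analysed here, and the level of the deleted gene and some genes that the rule picked are not reported here.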

Additional observations from a re-analysis of the deposited data

How the results depend on the processing

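Of the 859 refits of single members' fold changes, 712 kept direction and side of the threshold, 76 lost a call, 23 gained one and 48 changed sign, all 48 in comparisons whose value was not called. In KO ipsilateral against contralateral libraries, DESeq2 called 4 members (Gria1, Grin2b, Grin2c and Grm5) and 2009 genes, the replicate block by mouse called 4 (Gria2, Grin2b, Grin2c and Grm5) and 2498, the groups alone gave 2 and 1790, and TPM gave 1 (Grin2c) and 552, against 1 and 979. In WT mice the members called were 3 on TPM and 3 in the groups alone, against 5, and the genes called were 4641 under the replicate block and 1579 in the groups alone, against 2982. Between KO and WT ipsilateral libraries DESeq2 called 5 members, with Gria2 and Grin2b added, and 1734 genes, and the groups alone gave 1 and 196, against 3 and 983. Contralaterally DESeq2 called 3 members, with Gria1 and Gria4 added, and 653 genes, the groups alone gave 2 members, and TPM gave 0 and 149, against 1 and 233. For the interaction DESeq2 called 14 genes, against 0 in edgeR. The replicate block changed no call of a member other than those given beside the results. The cause of these differences was not tested.

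Leaving out 1 library or mouse gave 0 to 4 members and 2 to 2282 genes in KO mice, the highest without the ipsilateral library of mouse 298 and the fewest genes without mouse 295. It gave 1 to 5 members and 659 to 3610 genes in WT mice, the fewest without mouse 297. Between ipsilateral groups it gave 0 to 3 members and 0 to 1351 genes, and between contralateral groups 0 members and 0 to 391 genes. On TPM the calls were 67% higher in KO mice, against 86.6% in counts, and 50.7% higher between KO and WT ipsilateral libraries, against 68.7%. The median of all genes there shifted to -0.17 in KO mice, 0.12 between contralateral groups and -0.16 in the interaction.

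Signs changed as follows when a library or mouse was left out, in log2 fold change. Gria3 ran from -0.20 to 0.34 between contralateral groups. Gria4 ran from -0.28 to 0.23 in KO mice, from -0.14 to 0.22 in WT mice and from -0.35 to 0.19 in the interaction. Grin1 ran from -0.80 to 0.43 in KO mice, from -1.30 to 0.083 in WT mice, from -0.60 to 0.87 between ipsilateral groups, from -0.64 to 0.16 between contralateral groups and from -0.35 to 1.27 in the interaction. The interaction also ran from -0.12 to 0.58 for Gria1, from -0.46 to 0.52 for Gria2, from -0.71 to 0.087 for Grin2a and from -0.31 to 0.60 for Grm5, and on TPM that of Gria2 was -0.16. Shares by counts per GENCODE exon base moved by more than the spread for 1 of 16 values, Grin2c among Grin2 genes in WT ipsilateral libraries (99.4%), and leaving Gfap out of the astrocyte markers did so for 10 of 40 levels.

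The depth limits Grin1 and Grin2a, at 5 to 44 counts per library.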
